A study of Mus musculus with 24 samples.

Results

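Wild-type mouse embryonic stem cells of 2 lines were compared after the same induction of the transcription factor DUX. The libraries titled WT pLV2 line 2 with DOX (2 libraries) were set against those titled WT pLV2 line 1 with DOX (2 libraries). These 4 of the 24 libraries of the series were chosen by title alone. All cells were of KH2, a mouse embryonic stem cell line, and carried the DUX transgene that the titles name TRE_DUX, behind a promoter that responds to doxycycline (DOX). The compared groups were wild type (WT) and had received DOX for 16 h. Cultures were kept with LIF, either on gelatin or on growth-arrested mouse embryonic fibroblast feeders, and the labels do not say which support each culture had. Both lines were also sequenced without DOX (2 libraries each), and those 4 libraries give the difference between the lines before induction. What pLV2 stands for, and whether a line is 1 clone, is not said in the labels, and the number after pLV2 was read as a line number. No label states that the 2 libraries of a group came from separate cultures. The p-values rest on the spread between libraries of the same group, estimated over all 16 pLV2 libraries, and that spread may be technical. The rest of the series holds TRIM24-KO and TRIM33-KO pLV2 lines and a set without pLV2 (WT and DUXBL-KO), all with and without DOX.

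DUX is a double homeobox transcription factor of the zygote that binds and activates genes and retroviral promoters of the mouse 2-cell embryo. Its targets include the Zscan4 gene cluster and the endogenous retrovirus MERVL, whose long terminal repeat MT2_Mm serves as a promoter for many 2-cell genes. Forced expression of DUX moves embryonic stem cells into a 2-cell-like (2C-like) state, and DUXBL, a related double homeobox protein named in the title of the series, is placed there in the exit from that state.

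The compared libraries held 12734248 and 13284435 gene counts in line 1 and 12704430 and 12703385 in line 2. The treatment tag reads as untreated for the 4 compared libraries although their titles name DOX, and it differs from the title in 8 of the 24 libraries. Titles were followed. Dux counts went with the titles, with at most 2 in any of the 12 libraries titled without DOX and 20 to 110 in those titled with DOX. The stem cell label was supported by its markers in all 4 libraries, with Pou5f1 at 521 to 759, Sox2 at 269 to 405 and Esrrb at 409 to 478 CPM, the counts per library scaled to a common total with TMM factors. Among defining markers of feeder fibroblasts, Col3a1 had 0 counts in all 4 libraries and Postn had at most 1, while Thy1 stood at 11.6 and 13.2 CPM in line 1 and 20.8 and 20.6 in line 2. The repeat subfamilies took 11.8% and 12.0% of all counts in line 1 and 19.3% and 17.3% in line 2.

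The lines differed widely, and the difference had more than one pattern. Genes of the 2-cell state, MERVL and most other repeat subfamilies were higher in line 2 after induction. Imprinted genes such as Meg3, Rian, Peg10 and Mest differed by 116-fold to 185-fold with DOX and were also apart without it, and many pluripotency and glycolysis genes were lower in line 2. Of 18079 genes tested, 7219 (39.9%) passed an adjusted p of 0.05, with 3515 (19.4%) higher and 3704 (20.5%) lower in line 2. The test was edgeR's quasi-likelihood test with Benjamini-Hochberg adjustment, and the median log2 fold change of all genes, line 2 over line 1, was -0.03. With a fold change of at least 2 in addition (1 on the log2 scale), 1230 genes (6.8%) were higher and 811 (4.49%) lower. The balance of directions depended on the scaling: when library sizes were computed from genes outside chromosomes 1, 6, 8 and 11, a choice made after seeing the data, 4341 genes were higher and 2715 lower, and the median of all genes was 0.07. Of 965 repeat subfamilies tested, 527 (54.6%) passed, 516 (53.5%) of them higher and 11 (1.14%) lower, with a median of 0.46. The plot of levels per library shows 14 of these features in the 8 libraries of both lines.

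**Figure D1:**
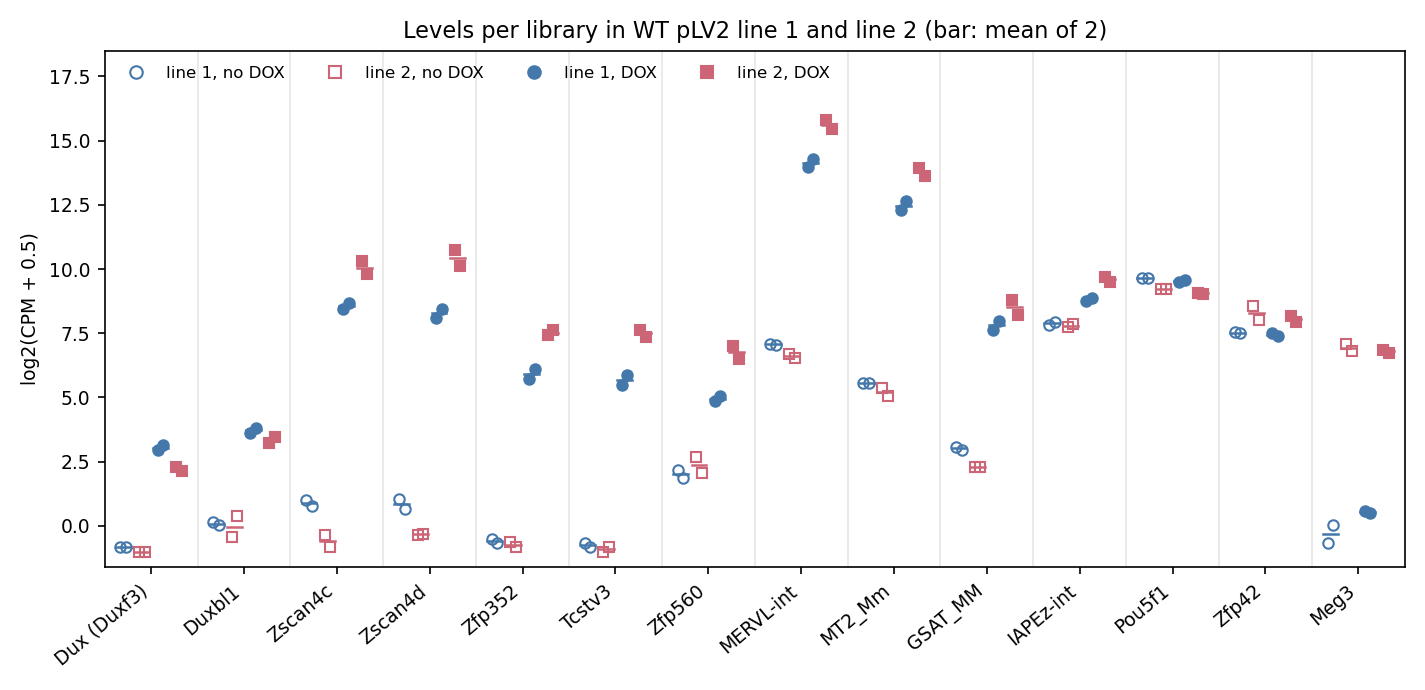
Level of 14 genes and repeat subfamilies in each of the 8 libraries of the 2 lines, as log2(CPM + 0.5). Blue circles are line 1 and red squares line 2, open without DOX and filled with DOX, and bars are means of 2 libraries. Zscan4d and MERVL-int are far higher with DOX than without it in both lines, and with DOX higher in line 2, while Meg3 separates the lines under both conditions.

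Counts assigned to Dux were not higher in line 2. Dux, annotated as Duxf3 (ENSMUSG00000075046.7, chromosome 10, 58229979 to 58232675, GRCm38), had 95 and 110 counts in line 1 and 58 and 53 in line 2. These are 7.23 and 8.32 CPM against 4.43 and 3.95, so both libraries of line 2 lay under both of line 1. The log2 fold change was -0.89 ± 0.24 (adjusted p = 0.00773). Here and below, ± gives the SE from the fit of all 16 pLV2 libraries, with 2 libraries per line compared. This call was lost with DESeq2 (0.0701), without line 1 with DOX replicate 2 (0.0682) and without line 2 with DOX replicate 2 (0.0549), and the adjusted p ranged from 0.00286 to 0.0701 over all alternatives. These counts do not separate transgene reads from those of endogenous Dux, and in bulk RNA fewer cells of a type and less RNA per cell cannot be told apart. Duxbl1, the gene of DUXBL, stood at 11.9 and 13.5 CPM in line 1 and 8.86 and 10.5 in line 2 (log2 fold change -0.39 ± 0.24, adjusted p = 0.207). Duxbl3 had under 2 CPM in each library and did not pass the test, and Duxbl2, with 0 to 8 counts, was not tested.

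Genes of the 2-cell state were higher in line 2 after induction. Of 42 listed 2C genes 40 were tested, 36 were higher and 1 was lower, against 19.4% and 20.5% of all genes. The median log2 fold change of the 40 was 1.03 (quartiles 0.76 and 1.496), against -0.03 over all genes, and it lay between 0.84 and 1.33 in the 4 pairings of a line 2 library with a line 1 library. Summed over the list, the level was 5063 and 6144 CPM in line 1 and 16572 and 12283 CPM in line 2. Line 2 replicate 1 was the highest library for most of these genes and line 1 replicate 1 the lowest. Without line 1 with DOX replicate 2 the median was 1.24, with 34 higher and 0 lower, and without line 2 with DOX replicate 1 and replicate 2 there were 33 and 0, and 33 and 2. Cml2 had no matching entry, and Pramel6 had 2 to 9 counts and was not tested.

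Some of the largest differences on that list were in the Zscan4 cluster of chromosome 7, whose genes encode zinc finger proteins with a SCAN domain that mark the 2-cell embryo and rare stem cells. Zscan4d (chromosome 7, 11161374 to 11166159, minus strand) stood at 275 and 347 CPM in line 1 and 1711 and 1107 CPM in line 2. Both libraries of line 2 were above both of line 1, by 4.53-fold (log2 fold change 2.18 ± 0.22, adjusted p = 1.48e-06). Zscan4c (chromosome 7, 11005745 to 11010547, plus strand) stood at 344 and 413 CPM against 1269 and 893 CPM, a log2 fold change of 1.51 ± 0.19. The log2 fold changes of the other tested copies were 1.40 for Zscan4a, 1.95 for Zscan4b, 1.70 for Zscan4e and 1.68 for Zscan4f, and each passed the test. These genes are paralogs of one cluster, and how reads that match several copies were counted is not given, so the split between them is uncertain. A pair of their promoters is shown because both carry letters like those of the double homeobox motif, and both genes passed the test of the interaction of line and DOX given below. The RefSeq promoters of Zscan4c (GRCm38.p6, chr7:11005495-11005794, plus strand) and Zscan4d (chr7:11166099-11166398, minus strand) are printed from 250 bases before the start site to 50 after it, with the match to the motif in capitals:
Zscan4c: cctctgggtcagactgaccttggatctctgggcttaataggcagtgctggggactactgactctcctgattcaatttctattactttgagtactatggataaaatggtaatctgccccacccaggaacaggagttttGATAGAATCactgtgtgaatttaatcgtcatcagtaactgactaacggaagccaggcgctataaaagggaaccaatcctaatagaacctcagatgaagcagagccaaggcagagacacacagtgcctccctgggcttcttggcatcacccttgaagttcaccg
Zscan4d: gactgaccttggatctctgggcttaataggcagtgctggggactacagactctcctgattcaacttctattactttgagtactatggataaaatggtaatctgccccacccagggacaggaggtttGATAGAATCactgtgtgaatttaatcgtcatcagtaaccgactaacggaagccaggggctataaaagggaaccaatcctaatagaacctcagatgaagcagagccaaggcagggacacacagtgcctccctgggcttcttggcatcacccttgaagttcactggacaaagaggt
The motif searched was GATTNNATC, a shortened and loosened form of the double homeobox motif, on both strands. In both genes it was found on the strand opposite to the one printed, and its printed letters begin 113 bases before the start site in Zscan4c and 124 in Zscan4d. Among 22 RefSeq promoters of 21 genes on the 2C list 6 held it, those of Zscan4b, Zscan4c, Zscan4d, Zscan4f, Sp110 and Gm4340. The Zscan4 promoters are of paralogs with the same matching letters, and those of Zscan4b and Zscan4f are 95.7% identical. Their matches are thus not independent of each other. The motif stood in 518 of 32851 promoters in all (1.58%) and in 22 of 206 promoters of the wider list of induced genes described below. The stricter letters GATTNAATC, which every match to them shares with the first motif, were in 1 of the 22 (Gm4340), in 12 of the 206 and in 0.268% of all promoters. A match is a description of letters, and no binding was measured here.

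Outside the Zscan4 cluster most of the 2C genes were higher as well. Zfp352, a zinc finger gene that lacks introns and is used as a 2-cell marker, stood at 51.6 and 69.0 CPM in line 1 and 172 and 195 CPM in line 2 (1.61 ± 0.16, adjusted p = 2.23e-06). Tcstv3, of a small family expressed in the 2-cell embryo, stood at 44.1 and 57.7 CPM against 199 and 163 CPM (1.83 ± 0.16). Zfp560, a zinc finger gene, stood at 28.6 and 32.6 CPM against 129 and 91.1 CPM (1.84 ± 0.18). In each of these 3 genes both libraries of line 2 lay above both of line 1, as in 33.7% of all genes tested. The Usp17l deubiquitinase genes, also paralogs, had log2 fold changes from 0.57 (Usp17ld) to 1.26 (Usp17lb), and all 5 passed the test. The call of Usp17ld was lost with DESeq2 (0.178) and when any 1 of the 4 compared libraries was left out, in a range of adjusted p from 1.07e-07 to 0.178. Among the BTB-domain genes Tdpoz1 to Tdpoz5, 3 were higher, Tdpoz4 by 0.96, Tdpoz3 by 0.65 and Tdpoz2 by 0.71 on the log2 scale. Tdpoz1 (-0.42, adjusted p = 0.0705) and Tdpoz5 (0.74, adjusted p = 0.159) did not pass. Over the alternatives the adjusted p ranged from 0.000676 to 0.0948 for Tdpoz2, which was not called without line 1 with DOX replicate 2 or line 2 with DOX replicate 2, from 0.0432 to 0.39 for Tdpoz1 and from 0.017 to 0.512 for Tdpoz5.

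A wider list gave the same picture. It held 502 genes that DOX raised at least 2-fold, past the same threshold, in the WT cells without pLV2, which share no library with the pLV2 lines. Of these, 372 were higher in line 2 with DOX and 7 lower, against 19.4% and 20.5% of all genes, with a median log2 fold change of 0.96 and 461 above 0. The list includes 36 of the 2C genes, and the other 466 had a median of 0.95, with 338 higher and 6 lower. P4ha2, which encodes a subunit of collagen prolyl hydroxylase, stood at 131 and 141 CPM in line 1 and 351 and 324 CPM in line 2 (1.31 ± 0.09). Gm4782, a predicted gene, stood at 11.5 and 11.9 CPM against 80.7 and 49.4 CPM (2.48 ± 0.20). The lower genes included Duxf3, Gm7978, Gm4969, Marveld1, Fbxo15 and Hdc, which were named after their values were seen. The 7 lower genes became 4 with DESeq2 and 4 without line 1 with DOX replicate 2, and 12 with no filter on low counts. Hdc was not called with DESeq2 or without line 1 with DOX replicate 1, line 1 with DOX replicate 2 or line 2 with DOX replicate 2 (range of adjusted p 0.00219 to 0.207), and Gm4969 was not with DESeq2 (0.0715, in a range from 0.0064). Fbxo15, an F-box gene of pluripotent cells, stood at 453 and 524 CPM in line 1 and 308 and 312 CPM in line 2 (-0.66, adjusted p = 2.14e-05). Outside chromosomes 1, 6, 8 and 11, which are treated below, 403 genes of the list had 291 higher and 7 lower, with a median of 0.93. Among all genes outside them 11.7% were higher and 25.1% lower, with a median of -0.12.

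Before induction the 2C genes did not have this order. The summed level of the list without DOX was 23.0 and 24.3 CPM in line 1 and 12.9 and 11.2 in line 2, with 0 members higher and 8 lower (18.9% and 19.2% of all genes). In 15 of the 40 genes all 4 libraries without DOX had 3 counts or fewer, so no fold is given for them. Zscan4c had 22 and 19 counts in line 1 without DOX and 6 and 1 in line 2. Zscan4d had 23 and 17 counts against 6 and 5. Both genes were thus lower in line 2 before DOX and higher in it after DOX. The test of this difference in DOX effect, the interaction of line and DOX, gave 4.31 for each gene on the log2 scale (adjusted p = 0.0170 for Zscan4c and 0.0205 for Zscan4d). Usp17le also passed it (3.75), and no other gene of the list did. These interaction calls rested on single libraries without DOX. Leaving out line 1 without DOX replicate 1 or replicate 2 ended all 3, as did line 2 without DOX replicate 1 for Zscan4d and Usp17le and replicate 2 for Zscan4c and Zscan4d, with adjusted p up to 0.138, 0.248 and 0.136 for Zscan4c, Zscan4d and Usp17le. The value of Zscan4c was 5.79 without line 2 without DOX replicate 1 and 3.70 without replicate 2. The plot of gene lists gives the median and quartiles with DOX of each list with at least 10 tested genes, and the median without DOX where counts allowed it.

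**Figure D2:**
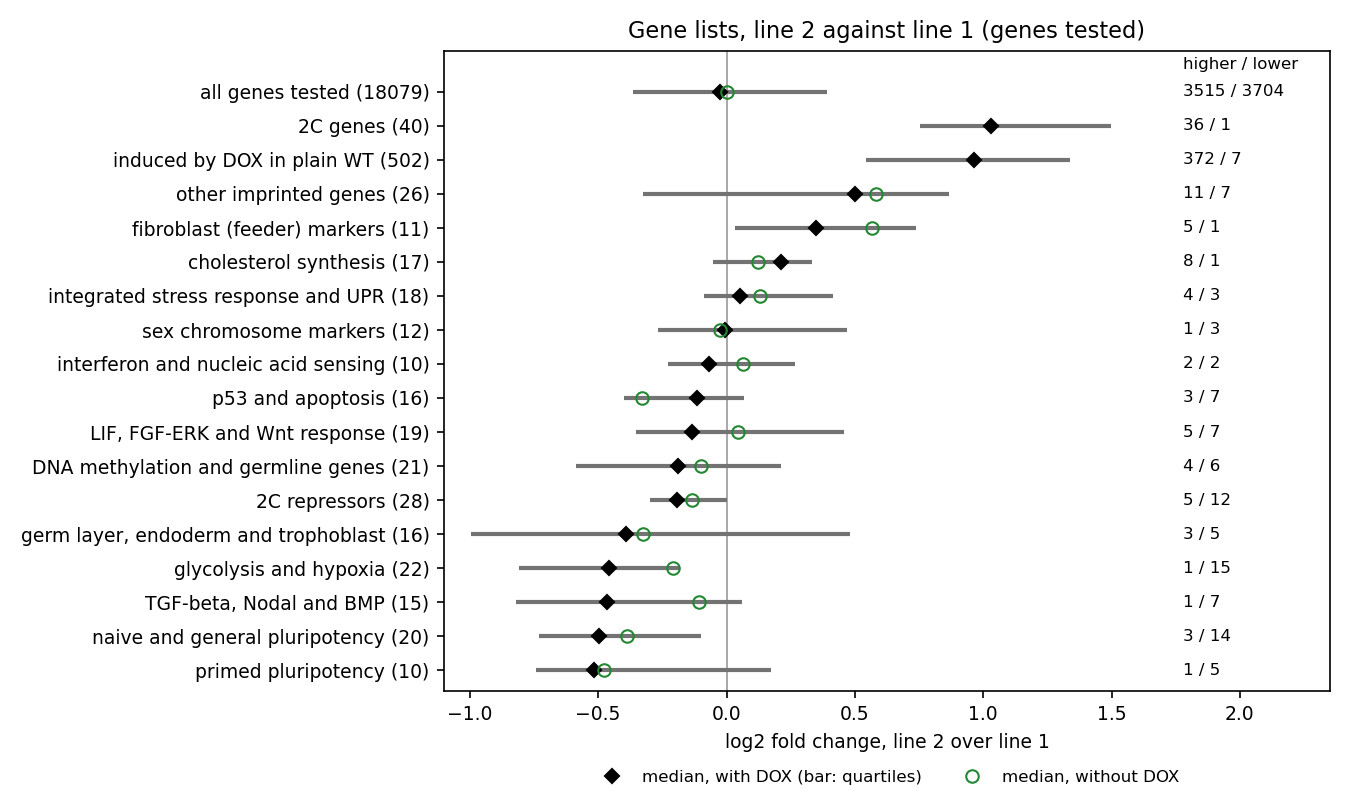
Median log2 fold change (diamonds) and quartiles (bars) of line 2 over line 1 with DOX for each gene list with at least 10 tested genes, with the numbers of tested members called higher and lower. Open green circles are the medians without DOX, left out where many members had 3 counts or fewer. The 2C list sits at 1.03 and the pluripotency list at -0.50, while the median over all genes is -0.03.

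MERVL carried the larger part of the difference in repeat share. MERVL-int, the internal part of the retrovirus, stood at 16217 and 19775 CPM in line 1 and 57014 and 44909 CPM in line 2. The 2 lines were far from overlapping, with a log2 fold change of 1.502 ± 0.16 (2.83-fold, adjusted p = 5.57e-06). MT2_Mm, its long terminal repeat, stood at 5100 and 6348 CPM against 15658 and 12664 CPM (1.31 ± 0.16, adjusted p = 1.53e-05). Together both took 16.5% and 19.06% of the repeat counts in line 1 and 31.3% and 29.1% in line 2. Without them the other repeats still took 9.82% and 9.71% of all counts in line 1 and 13.3% and 12.3% in line 2. Without DOX MERVL-int stood at 137 and 132 CPM in line 1 and 102 and 91.3 CPM in line 2 (-0.48, adjusted p = 0.06015), so the order of the lines was the opposite. The DOX effect was 7.06 in line 1 and 9.04 in line 2 on the log2 scale, an interaction of 1.98 ± 0.22 (adjusted p = 6.96e-05).

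Other retroviral subfamilies stood out beside MERVL. RLTR6-int, an ERV1 subfamily, stood at 231 and 254 CPM in line 1 and 1163 and 740 CPM in line 2 (1.97 ± 0.18, adjusted p = 3.22e-06). SRV_MM-int, of the ERVK family, stood at 29.2 and 31.9 CPM against 120 and 97.3 CPM (1.83 ± 0.17). RMER12B stood at 7.84 and 8.93 CPM against 28.9 and 23.9 CPM (1.65 ± 0.16). MERVL_2A-int and ORR1A3, of the ERVL and ERVL-MaLR families, were also higher (1.34 and 0.90). IAPEz-int, the internal part of the intracisternal A particle, an active retrotransposon of the mouse, stood at 432 and 470 CPM in line 1 and 818 and 729 CPM in line 2 (0.78 ± 0.12, adjusted p = 8.185e-05). The difference was not shared by every retrotransposon of the ERVK family: MMETn-int stood at 1615 and 1435 CPM against 1453 and 1449 CPM (-0.07, adjusted p = 0.408) and ETnERV-int had a log2 fold change of 0.00 (adjusted p = 0.970). These 2 were chosen after their values were seen.

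Among the large retroviral families, 39.8% of 103 ERV1, 47.4% of 95 ERVL, 62.4% of 271 ERVK and 70.3% of 91 ERVL-MaLR subfamilies were higher. All repeat subfamilies tested had 53.5%. The 41 higher ERV1 subfamilies became 26 without line 2 with DOX replicate 1. Medians were 0.415 for ERV1, 0.54 for ERVK, 0.52 for ERVL and 0.56 for ERVL-MaLR. Without DOX the ERVK median was -0.01, and 85 of the 271 subfamilies passed the interaction test, against 20.7% of all repeat subfamilies. Among LINE-1 (L1) subfamilies 90 of 127 were higher, with a median of 0.56 (0.26 without DOX). All 5 subfamilies of the B2 family of short interspersed elements were higher, with a median of 0.91 against 0.08 without DOX. B2_Mm1a stood at 4119 and 4664 CPM in line 1 and 11718 and 8949 CPM in line 2 (1.23 ± 0.16). The B1 elements, which the tables place in the family Alu, had 15 of 16 higher at a median of 0.27, which was also their median without DOX, and 8 of 16 were higher without line 1 with DOX replicate 2. The plot of repeat families shows these medians beside the share of counts in repeats.

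**Figure D3:**
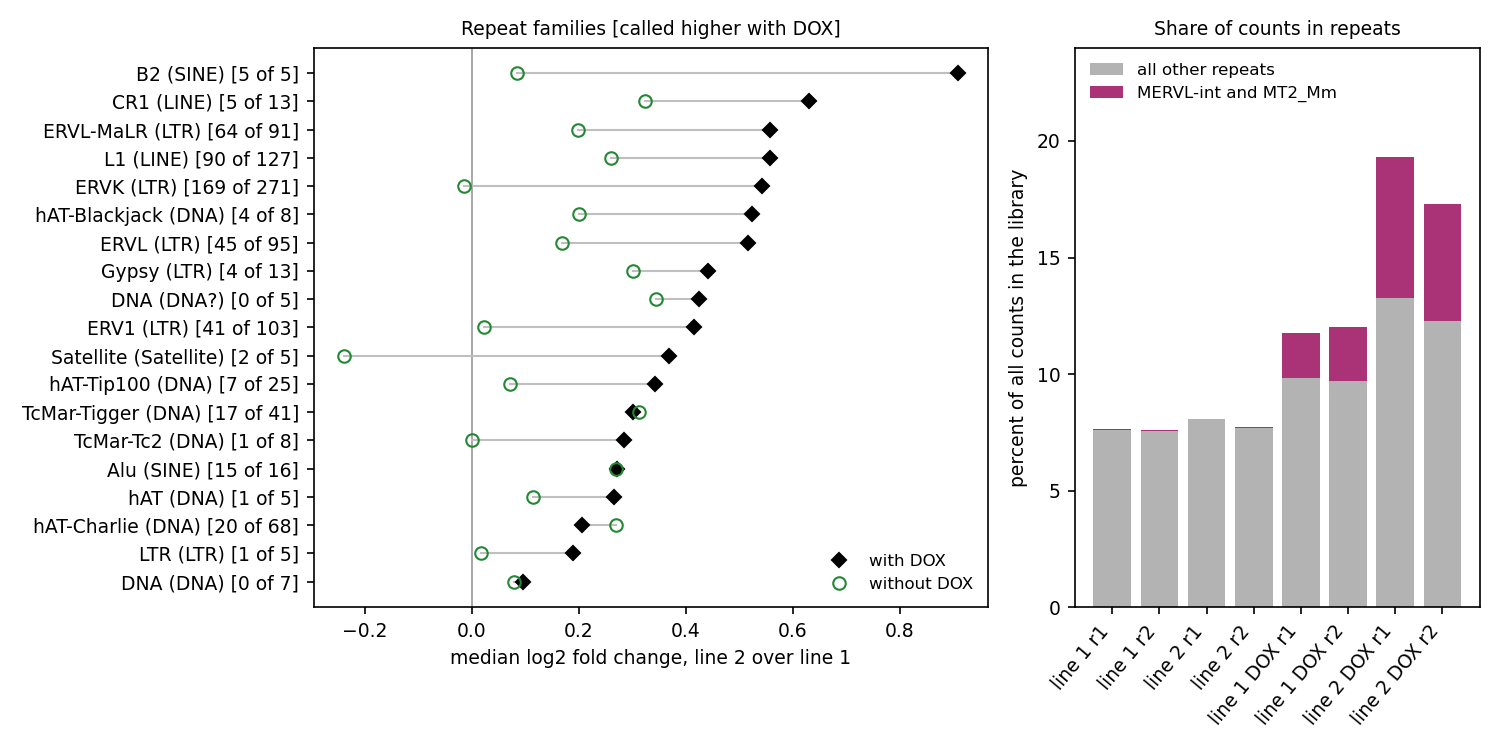
Left, median log2 fold change of line 2 over line 1 for each repeat family with at least 5 tested subfamilies, with DOX (filled) and without DOX (open). Right, share of all counts in MERVL-int and MT2_Mm and in other repeats in each of the 8 libraries, as stacked bars from 0. With DOX the share in repeats is 19.3% and 17.3% in line 2 and 11.8% and 12.0% in line 1.

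With DOX, young L1 subfamilies did not all differ in the same direction between the lines. L1Md_F3 stood at 771 and 867 CPM in line 1 and 2082 and 1498 CPM in line 2 (1.13 ± 0.17). L1Md_A stood at 1450 and 1482 CPM against 1624 and 1179 CPM (-0.06, adjusted p = 0.805), although without DOX it was lower in line 2 (-1.64). L1Md_T stood at 2784 and 3112 CPM against 2462 and 1958 CPM (-0.42 ± 0.40, adjusted p = 0.395). Its 2 libraries of line 2 lay under both of line 1, and the test passed when only the compared groups were fitted (0.00989), with only the 8 WT pLV2 libraries (0.0123) and without a filter on low counts (5.59e-10), within a range of adjusted p from 5.59e-10 to 0.695. Without DOX L1Md_T had -1.38 (adjusted p = 0.0351), a call that rested on single libraries (-1.54 to -1.19 with 1 left out). L1Md_Gf was lower, at 174 and 176 CPM in line 1 and 138 and 106 CPM in line 2 (-0.52 ± 0.11). Over the alternatives the interaction was 1.33 to 1.79 for L1Md_A, 0.90 to 1.38 for L1Md_F3 and 0.65 to 1.03 for L1Md_Gf. GSAT_MM, the major satellite of pericentromeric chromatin, stood at 196 and 253 CPM in line 1 and 448 and 296 CPM in line 2 (0.73 ± 0.19, adjusted p = 0.00358). That call rested on single libraries: it was lost without line 1 with DOX replicate 1 (0.0586) and without line 2 with DOX replicate 1 (0.100, log2 fold change 0.40), and its adjusted p ranged from 2.98e-18 to 0.100.

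The 11 lower subfamilies were few beside the 516 higher ones. Those with the smallest p were MMERVK9C_I-int, at 167 and 163 CPM in line 1 and 107 and 111 CPM in line 2 (-0.60 ± 0.07), RLTR1B-int (-0.97), MMERGLN-int (-0.79), L1Md_Gf and LTR88c (-0.84). MMERVK9C_I-int, RLTR1B-int and MMERGLN-int were also lower in line 2 without DOX (-1.06, -0.96 and -1.004). Repeats induced by DOX in the WT cells without pLV2 numbered 57, and 54 of these were higher in line 2 and 0 lower, with a median of 1.02 with DOX and 0.03 without. The other 908 subfamilies had a median of 0.43, with 462 higher and 11 lower.

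Most of the gene calls were also made without DOX, and most of the repeat calls were not. Without DOX 6886 genes (38.1%) passed, and 5014 genes passed in the same direction under both conditions, 69.5% of the calls with DOX and 72.8% of those without. Only 38 genes passed in opposite directions. Of the repeat subfamilies 113 (11.7%) passed without DOX, 80 (8.29%) higher and 33 (3.42%) lower, and 79 passed in the same direction under both conditions, 15.0% of the calls with DOX and 69.9% of those without. In opposite directions 11 repeat subfamilies passed. The number without DOX rested on single libraries and on the filter: it was 39 (20 higher and 19 lower) without line 2 without DOX replicate 1, 46 (25 and 21) without line 1 without DOX replicate 1, 53 (30 and 23) without line 1 without DOX replicate 2, and 248 (189 and 59) with no filter on low counts. Tested directly, the difference between the lines changed with DOX in 44 genes (0.243%), 34 (0.188%) upwards in line 2 and 10 (0.0553%) downwards, and in 200 repeat subfamilies (20.7%), 200 upwards and 0 downwards. The number of genes rested on single libraries, since it was 9 without line 1 without DOX replicate 1, 11 without line 1 without DOX replicate 2, 16 without line 1 with DOX replicate 1, 20 without line 2 without DOX replicate 1, 25 without line 2 with DOX replicate 1 and 75 without line 2 with DOX replicate 2. The number of repeat subfamilies was 108 without line 2 with DOX replicate 1, 123 without line 1 with DOX replicate 1, 127 without line 2 without DOX replicate 2 and 128 without line 1 without DOX replicate 2. Within line 1, DOX changed 594 repeat subfamilies (61.6%), of which 591 (61.2%) rose and 3 (0.311%) fell, and it raised 1801 genes (9.96%) and lowered 1106 (6.12%). Within line 2 it changed 695 repeat subfamilies (72%), of which 693 (71.8%) rose and 2 (0.207%) fell, and it raised 2289 genes (12.7%) and lowered 2499 (13.8%). The 2 effects share no library, and the median effects on repeats were 0.59 and 0.95.

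**Figure D4:**
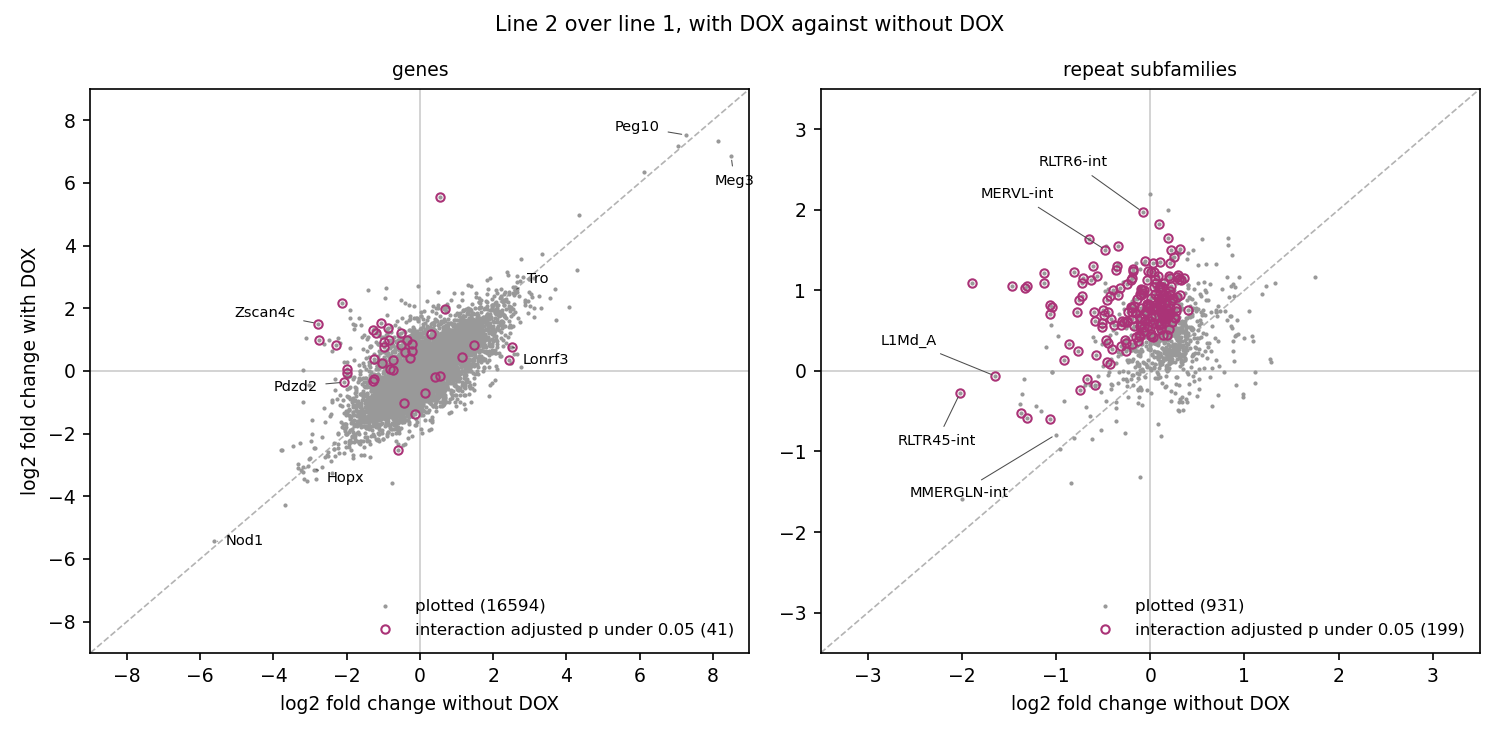
Log2 fold change of line 2 over line 1 with DOX (vertical) against that without DOX (horizontal), for 16594 genes (left) and 931 repeat subfamilies (right) with more than 3 counts in at least 1 library of each of the 4 groups. Ringed points passed the interaction test and the dashed line marks equal values. Genes such as Peg10 and Nod1 lie near the dashed line, and MERVL-int and RLTR6-int lie above it.

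The genes with an interaction had several forms. Pdzd2, a gene of a PDZ-domain protein, was lower in line 2 without DOX (14.2 and 12.2 CPM against 3.25 and 3.003) and by less with DOX (17.0 and 16.8 CPM against 14.1 and 12.2, -0.36, adjusted p = 0.0239). The call with DOX was lost under 8 alternatives, among them DESeq2 (0.147) and leaving out line 1 with DOX replicate 1 (0.0951), line 1 with DOX replicate 2 (0.0761) or line 2 with DOX replicate 2 (0.184), in a range of adjusted p from 0.0167 to 0.184. Mgll, which encodes monoglyceride lipase, was under 1.1 CPM in all 4 libraries without DOX and in line 1 with DOX, and reached 23.0 and 23.9 CPM in line 2 with DOX (5.55 between the lines with DOX, interaction 5.01). The interaction of Mgll was 4.16 and not called (0.425) without line 1 without DOX replicate 1, and 4.39 and 5.80 without line 2 without DOX replicate 1 and replicate 2, in a range of adjusted p from 3.03e-10 to 0.425. 5430402O13Rik (chromosome 6, 50566643 to 50594865), annotated as antisense, had 0 counts in both libraries of line 1 with DOX and 212 and 189 in line 2, at least 66.5-fold higher against a floor of 3 counts per library. It had 0 to 2 counts without DOX in both lines, and its interaction was not called without line 1 without DOX replicate 1 (0.0625) or replicate 2 (0.266), in a range of adjusted p from 8.18e-06 to 0.266. Whether the counting used strand is not stated, so its reads and those of an overlapping gene cannot be told apart. Lonrf3, which encodes a RING finger protein, was already higher in line 2 without DOX (3.22 and 2.00 CPM against 15.7 and 14.2) and the gap narrowed with DOX (24.96 and 23.0 CPM against 45.4 and 36.0), a call lost without line 1 without DOX replicate 2 (0.117, in a range from 1.45e-12). Of the 502 induced genes 15 passed the interaction test with a larger effect in line 2, where 34 of all 18079 genes did (0.188%).

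Some of the largest differences between the lines were in imprinted genes, which are expressed from 1 parental copy. Meg3, a long noncoding RNA of the Dlk1-Dio3 locus (chromosome 12, 109541001 to 109571726), stood at 0.99 and 0.91 CPM in line 1 and 115 and 106 CPM in line 2, a log2 fold change of 6.86 ± 0.18 (adjusted p = 2.04e-13). Rian, a noncoding RNA of the same locus, stood at 0.76 and 1.59 CPM against 198 and 189 CPM (7.35 ± 0.18). Without line 1 with DOX replicate 2 the value of Rian was 7.97. Mirg was higher by 6.52 (5.86 and 7.74 without line 1 with DOX replicate 1 and replicate 2) and Dlk1, which encodes a protein of the Notch ligand family, by 2.44 on the log2 scale. Of 6 tested genes of the locus 4 were higher, against 19.4% of all genes, while Dio3 and Begain did not pass. On chromosome 6, Peg10, a gene derived from a retrotransposon and needed in the placenta, stood at 2.06 and 2.42 CPM in line 1 and 528 and 304 CPM in line 2 (7.53 ± 0.36). Mest stood at 0.69 and 1.21 CPM against 167 and 112 CPM (7.19 ± 0.37). Sgce, the neighbour of Peg10, had at most 2 counts in a library of line 1 and was at least 18.1-fold higher in line 2. All 5 genes Meg3, Rian, Mirg, Peg10 and Mest differed without DOX as well, by 8.50, 8.15, 8.17, 7.26 and 7.06. Without line 1 without DOX replicate 2 these were 9.75 for Meg3, 9.06 for Rian and 8.19 for Mest, and without replicate 1 of that group Meg3 had 7.91.

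Imprinted genes elsewhere differed in both directions. Of 26 such genes outside the Dlk1-Dio3 locus, 11 (42.3%) were higher and 7 (26.9%) lower in line 2, against 19.4% and 20.5% of all genes, with a median of 0.50, which was 0.33 without line 2 with DOX replicate 1. The split was 9 and 3 without that library, 11 and 4 without line 1 with DOX replicate 1, and 11 and 4 with DESeq2. Igf2, a growth factor, stood at 4.80 and 4.92 CPM in line 1 and 0.69 and 0.45 CPM in line 2 (-3.08 ± 0.26), and H19, a noncoding RNA next to it, was also lower (-0.78). The call of H19 was lost with DESeq2 (0.0905) and without line 1 with DOX replicate 1 (0.0656) or line 2 with DOX replicate 1 (0.0843), in a range of adjusted p from 0.00859 to 0.0905. Grb10, an adaptor of growth factor receptors, stood at 248 and 232 CPM in line 1, and the 2 libraries of line 2 differed from each other, at 12.9 and 83.2 CPM (-2.32 ± 0.61, adjusted p = 0.00624). Without line 2 with DOX replicate 1 Grb10 had -1.53 and did not pass (0.0526), and without replicate 2 it had -4.22, in a range of adjusted p from 7.44e-143 to 0.0526. Zdbf2 (0.95), Snrpn (0.90) and Nnat (0.95) were higher.

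The genes with the smallest p or the largest fold were of varied function. Higher in line 2 were Tro, which encodes the adhesion protein trophinin, at 13.5 and 14.1 CPM in line 1 and 76.2 and 92.7 CPM in line 2 (2.61 ± 0.12), and Xlr3a, of an X-linked family, at 0.30 and 0.15 CPM against 16.6 and 21.9 CPM (6.35 ± 0.30). Snd1, which encodes an RNA-binding nuclease, stood at 117 and 115 CPM against 354 and 324 CPM (1.55 ± 0.08), and Tnpo3, a nuclear import receptor, was higher by 1.46. B830012L14Rik and Gm18765 had at most 1 count in a library of line 1 and were at least 65.7-fold and 80.6-fold higher in line 2. Gm14036 had 0 counts in line 1 and was at least 39.1-fold higher, but its call was lost with DESeq2 (0.245) and without line 1 with DOX replicate 1 (0.0996), line 1 with DOX replicate 2 (0.0991) or line 2 with DOX replicate 1 (0.0908), in a range of adjusted p from 1.15e-44 to 0.245.

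Lower in line 2 was Hspb1, a small heat shock protein, at 310 and 316 CPM in line 1 and 98.1 and 104 CPM in line 2 (-1.63 ± 0.07, adjusted p = 5.07e-10). Nod1, a sensor of bacterial cell wall fragments, stood at 18.9 and 17.8 CPM against 0.53 and 0.30 CPM (-5.44 ± 0.24). Ifitm3, an antiviral membrane protein, stood at 85.3 and 89.3 CPM against 23.5 and 19.5 CPM (-2.02 ± 0.10). These 3 genes were named under a rule that required no overlap between the lines. Also lower were Lrp1, a lipoprotein receptor (-1.52), Nid1, a basement membrane protein (-1.39), Inpp5d, an inositol phosphatase (-1.55), Cth, the cystathionine lyase of cysteine synthesis (-1.17), Cdyl2 (-1.63), Sept1 (-2.10) and AU015836 (-2.69). The largest folds downwards were in Gm7971 and Gm7978, with 0 counts in both libraries of line 2 and at least 68.2-fold and 67.7-fold lower. Next, among genes with a mean of at least 50 counts, came Nod1 (-5.44), Clca3b (-4.28), Slc23a1 (-3.51), AI662270 (-3.45), Gm11427 (-3.17) and Hopx (-3.15). The value of AI662270 rested on single libraries, at -2.65 without line 2 with DOX replicate 1 and -5.55 without line 2 with DOX replicate 2. Gm7971 and Gm7978 both lie on chromosome 5.

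Position on the chromosome went with the direction. On chromosomes 1, 6, 8 and 11 the median log2 fold changes were 0.44, 0.34, 0.33 and 0.40, and 45.9%, 40.1% and 48.7% of tested genes were higher on chromosomes 1, 6 and 11, with 378 of 946 on chromosome 8, against 19.4% of all genes. Without line 2 with DOX replicate 1 there were 331 higher genes in place of 516 on chromosome 1, and 241 on chromosome 8. Without DOX the medians were 0.43, 0.30, 0.30 and 0.40. On the other numbered chromosomes the medians lay between -0.20 and -0.03, and on the X chromosome the median was 0.12, which was 0.0562 without line 2 with DOX replicate 2 and 0.22 with scaling by genes outside these chromosomes. These 4 chromosomes held 4281 genes (23.7% of those tested), 54.0% of all higher calls and 6.59% of all lower calls. In 10 Mb bins with at least 20 genes, 53 of 235 bins had a median above 0.25, and 49 of the 53 lay on these chromosomes, which have 54 such bins. The 4 chromosomes were picked after the values were seen, and scaling by the genes outside them gave medians of 0.54, 0.44, 0.43 and 0.49. With that scaling some other numbered chromosomes turned slightly positive, such as chromosome 3 (0.0213). DNA copy number was not measured here. The plot of chromosomes shows the medians side by side.

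**Figure D5:**
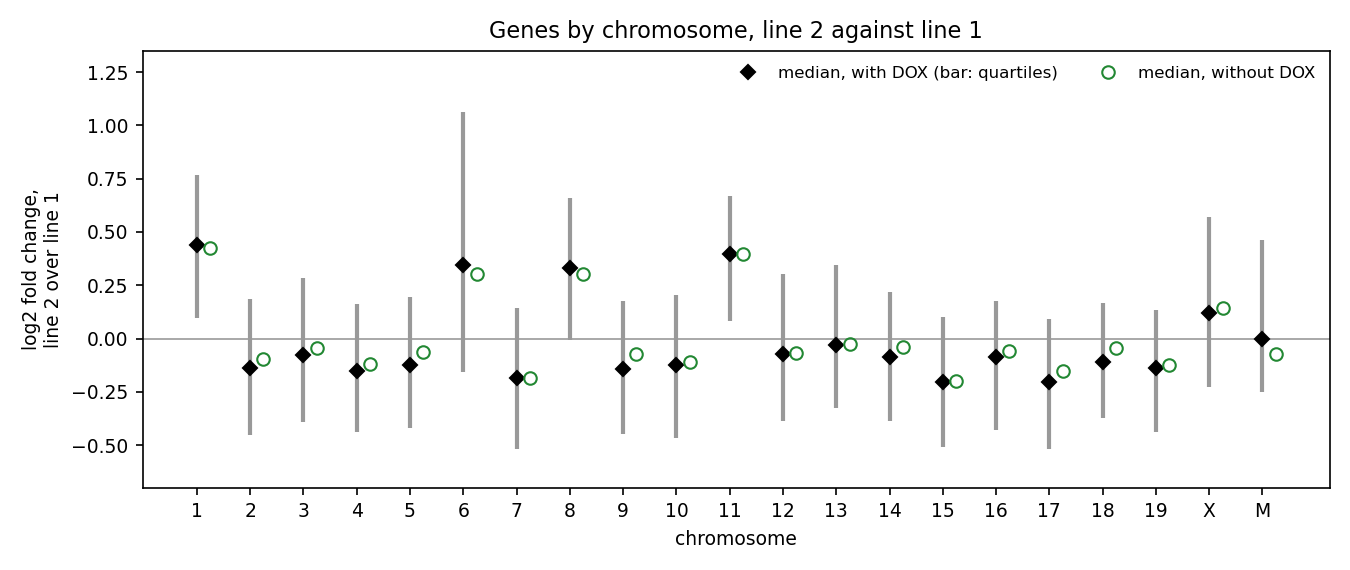
Median log2 fold change of line 2 over line 1 per chromosome with DOX, with quartiles as bars, and the medians without DOX. Chromosomes 1, 6, 8 and 11 sit between 0.33 and 0.44 with DOX, and the other numbered chromosomes between -0.20 and -0.03.

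Within chromosome 6 the difference was uneven. From 0 to 40 Mb, 131 of 166 tested genes were higher and 1 was lower, against 19.4% and 20.5% of all genes, with a median of 1.38 (2.60-fold) and of 1.48 without DOX. From 40 to 110 Mb the median of 341 genes was -0.09 (0.0082 when scaled by genes outside chromosomes 1, 6, 8 and 11), and from 110 to 150 Mb the median of 314 genes was 0.39. The first stretch holds Peg10, Sgce, Mest, Snd1, Tnpo3, Col1a2 and Asns. It also holds Trim24, a member of the TIF1 family of chromatin cofactors whose knockout is part of the series, at 99.7 and 95.1 CPM in line 1 and 199 and 174 CPM in line 2 (0.94 ± 0.10, adjusted p = 1.755e-06), with a difference of 0.89 without DOX. The boundaries were set after the bins were seen.

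The other members of the TIF1 family lie elsewhere and had no common direction. Trim33 stood at 123 and 121 CPM in line 1 and 85.2 and 98.9 CPM in line 2 (-0.41 ± 0.07, adjusted p = 0.000179). Trim28, the corepressor that silences retroviruses with KRAB zinc finger proteins, stood at 2027 and 2083 CPM against 1690 and 1640 CPM (-0.30 ± 0.06). Trim66, with under 3 CPM, was higher (1.03, adjusted p = 0.0326). That call was lost with DESeq2 (0.112) and without line 1 with DOX replicate 1 (0.259), line 2 with DOX replicate 1 (0.145) or line 2 with DOX replicate 2 (0.0584), in a range of adjusted p from 0.0215 to 0.259. The median of the 4 was 0.32 and turned to -0.30 without Trim24, and it was 0.17 without line 1 with DOX replicate 1. Among 28 repressors of the 2-cell state 5 (17.9%) were higher and 12 (42.9%) lower, against 19.4% and 20.5% of all genes, with a median of -0.19, and 7 were higher and 9 lower, with a median of -0.10, when scaled by genes outside chromosomes 1, 6, 8 and 11. Ehmt2, a histone H3 lysine methyltransferase, was lower (-0.65), as were L3mbtl2, of a variant Polycomb complex (-0.43), Dnmt1, the maintenance DNA methyltransferase (-0.35), and Setdb1, which methylates histone H3 at retroviruses (-0.29). Nucleolin (Ncl, 0.58) and Nelfa (0.56) were higher. Without line 1 with DOX replicate 1 the list had 3 higher and 9 lower, and Nelfa did not pass (0.052, in a range from 5.65e-12). Setdb1 did not pass with the other scaling (0.059) or without line 2 with DOX replicate 2 (0.052), in a range of adjusted p from 0.00267 to 0.059.

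Pluripotency genes were mostly lower in line 2. Of 20 genes 14 were lower and 3 higher, against 20.5% and 19.4% of all genes, with a median of -0.50. The median without DOX was -0.39, and 0 of the 20 passed the interaction test, which only 0.243% of all genes passed. Pou5f1, which encodes OCT4, stood at 728 and 759 CPM in line 1 and 540 and 521 CPM in line 2 (-0.49 ± 0.07, adjusted p = 5.33e-05). Sox2 (-0.51), Klf5 (-0.88), Tdgf1 (-0.70), Fgf4 (-1.17), Tbx3 (-1.06), Sall4 (-0.82) and Dppa5a (-1.39) were lower too. Zfp42, also known as Rex1, was higher, at 182 and 166 CPM in line 1 and 290 and 242 CPM in line 2 (0.61 ± 0.12), with Dppa3 (1.28) and Tfcp2l1 (0.37). The 3 higher genes lie on chromosomes 8, 6 and 1, and outside the 4 chromosomes 0 of 14 were higher and 13 lower. Among all genes outside them 11.7% were higher and 25.1% lower, with a median of -0.12. Nanog stood at 540 and 558 CPM against 638 and 582 CPM (0.15, adjusted p = 0.128). It passed with DESeq2 (0.0309) and with scaling by genes outside chromosomes 1, 6, 8 and 11 (0.0206), in a range of adjusted p from 0.0206 to 0.548.

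Genes of primed pluripotency and lineage genes had calls in both directions, against 19.4% higher and 20.5% lower among all genes. Of 10 primed genes 5 were lower and 1 higher, with a median of -0.52, and 1 to 3 were higher over the alternatives (2 without line 2 with DOX replicate 1 or replicate 2). Otx2, a homeobox gene of the primed state, stood at 32.0 and 31.6 CPM in line 1 and 7.79 and 11.3 CPM in line 2 (-1.74 ± 0.16), and Dnmt3b, a de novo DNA methyltransferase, was lower (-0.66), while Dnmt3a was higher (0.61). Among 16 germ layer, endoderm and trophoblast genes 3 (18.8%) were higher and 5 (31.2%) lower, against the same 19.4% and 20.5%. These counts rested on single libraries, at 2 and 2 without line 1 with DOX replicate 1, 2 and 3 without line 1 with DOX replicate 2, 1 and 5 without line 2 with DOX replicate 1, and 2 and 2 without line 2 with DOX replicate 2. The list had Eomes at -0.93 and Krt8 at -1.19, and Nes, a neural filament gene, at 1.00. Cdx2, Foxa2, Gsc, Pax6 and the gene T had at most 8 counts in a library with DOX and were not tested. Of 21 DNA methylation and germline genes 4 were higher and 6 (28.6%) lower, against 19.4% and 20.5% of all genes, with a median of -0.19 that was -0.35 without line 2 with DOX replicate 2. Dnmt3l, the cofactor of the de novo methyltransferases, stood at 250 and 267 CPM against 102 and 103 CPM (-1.33 ± 0.09), and Tet1 (-0.74) and Tet2 (-0.72), which oxidise methylcytosine, were lower.

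Glycolysis and hypoxia genes were mostly lower in line 2. Of 22 entries 15 were lower and 1 higher, against 20.5% and 19.4% of all genes, with a median of -0.46 and of -0.21 without DOX. Aldoa, a glycolytic aldolase, stood at 1730 and 1885 CPM in line 1 and 784 and 952 CPM in line 2 (-1.06 ± 0.10). Eno1 (-0.89), Hk1 (-0.83), Pgk1 (-0.73) and Pkm (-0.46) were lower, as were Bnip3 (-1.57), Egln3 (-1.34) and Vegfa (-0.74), which respond to low oxygen. The glucose transporter Slc2a3 was the 1 higher gene (0.38), and Gapdh did not pass (0.14, adjusted p = 0.132). Gapdh passed with DESeq2 (0.0274), with only the 8 WT pLV2 libraries (0.0403) and when scaled by genes outside chromosomes 1, 6, 8 and 11 (0.0146), in a range of adjusted p from 0.0146 to 0.464. Of 17 cholesterol synthesis genes 8 were higher and 1 lower, with a median of 0.21. Lss (0.57), Dhcr7 (0.57) and Fdft1 (0.39) are synthesis enzymes that were higher, and the lower gene was Srebf2 (-0.32), the transcription factor of the pathway. Srebf2 was not called when scaled by genes outside chromosomes 1, 6, 8 and 11 (0.0613), without line 1 with DOX replicate 2 (0.0942) or without line 2 with DOX replicate 1 (0.139), in a range of adjusted p from 0.00128 to 0.139, and 2 genes were lower without line 2 with DOX replicate 2.

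Signalling and stress lists had calls in both directions, and their counts stand against 19.4% higher and 20.5% lower among all genes. Most of their higher calls lay on the 4 chromosomes with raised medians. Outside those, 0 of 13 TGF-beta, Nodal and BMP genes were higher and 7 lower. For LIF, FGF-ERK and Wnt it was 1 and 6 of 12, and for p53 and apoptosis 0 and 7 of 12. The interferon list had 0 and 2 of 7, and the integrated stress response list 2 and 3 of 14. Among all genes outside those chromosomes 11.7% were higher and 25.1% lower. Counts for the full lists follow. Of 15 TGF-beta, Nodal and BMP genes 7 were lower and 1 higher, with a median of -0.46. Nodal itself stood at 52.4 and 48.8 CPM in line 1 and 26.9 and 29.4 CPM in line 2 (-0.85 ± 0.10), its feedback inhibitor Smad7 was lower (-0.79), and Lefty2 was higher (0.61). Among 19 LIF, FGF-ERK and Wnt genes 5 were higher and 7 lower, with 3 and 5 without line 1 with DOX replicate 1, 4 and 4 without line 2 with DOX replicate 1, and 3 and 7 without line 2 with DOX replicate 2. Stat3, the transducer of LIF, was higher in line 2 (67.4 and 61.7 CPM against 100 and 104 CPM), Etv4 was higher (1.11), and Spry2 (-0.82), Dusp6 (-0.66) and Lef1 (-2.74) were lower. Of 16 p53 and apoptosis genes 3 were higher and 7 lower. The apoptosis genes Bbc3 (-1.16) and Pmaip1 (-1.09), which encode PUMA and NOXA, were lower. Of 18 integrated stress response entries 4 were higher and 3 lower, with Asns, the asparagine synthetase of chromosome 6, at 1.45, and 3 and 1 without line 2 with DOX replicate 1. Of 10 interferon and nucleic acid sensing genes 2 were higher and 2 lower (1 and 2 without line 1 with DOX replicate 1 or line 2 with DOX replicate 1), with a median of -0.07 that was 0.26 without line 2 with DOX replicate 1 and 0.04 without line 1 with DOX replicate 2, and Ifih1, Ifit1, Ifit3, Irf7, Isg15 and Mx1 had at most 6 counts in a library with DOX and were not tested.

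Markers of fibroblasts differed in part between the lines. Of 19 listed genes 11 were tested, 5 were higher and 1 lower in line 2, against 19.4% and 20.5% of all genes, with a median of 0.35 (0.57 without DOX). That median rested on single libraries, at 0.10 without line 2 with DOX replicate 2, 0.21 without line 1 with DOX replicate 2 and 0.57 without line 1 with DOX replicate 1. Their summed level was 1644 and 1608 CPM in line 1 and 1841 and 1810 CPM in line 2 with DOX, and 1667 and 1710 CPM against 2059 and 1941 CPM without it. Most of that sum was Fn1, fibronectin, at 1426 and 1392 CPM against 1512 and 1507 CPM (0.10, adjusted p = 0.319). Sparc was higher (0.58), as were Fbn1 (0.74), Thy1 (0.74) and Col1a1 (0.85), and Tagln was lower (-1.51). The call of Col1a1 was lost without line 1 with DOX replicate 1 (0.086), line 1 with DOX replicate 2 (0.113) or line 2 with DOX replicate 1 (0.119), in a range of adjusted p from 0.00502 to 0.119. Col1a2 had 2 counts in each library of line 1 and 32 and 17 in line 2, at least 8.15-fold higher. The part of feeder cells in the other differences was not tested. Of 12 sex chromosome markers 1 was higher and 3 lower, with 3 and 2 without line 1 with DOX replicate 2 and 2 and 3 with a replicate block, under which Ddx3y passed (0.0244, in a range from 5.71e-10 to 0.896). Y-linked genes were lower in replicate 1 than in replicate 2 of both lines, with Ddx3y at 10.2 and 45.2 CPM in line 1 and 35.7 and 62.0 CPM in line 2, and Eif2s3y at 27.2 and 58.2 CPM against 32.5 and 52.1 CPM. In Usp9y, the 1 higher gene, the replicates of a line were closer together (15.7 and 19.98 CPM against 37.2 and 39.1 CPM; 1.10, adjusted p = 0.000755).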

How the data were processed

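RNA was sequenced as 75 bp paired reads from strand-specific, rRNA-depleted libraries, per the labels' protocols. The authors deposited 1 table of raw counts per library, for 55487 gene IDs and 1146 repeat subfamilies, per the file headers. The submitters' processing notes name bcl2fastq 2.20.0, cutadapt 1.18, STAR 2.7.6a and build mm10. The counting tool, its use of strand and its handling of reads with several matches are not given in the sources used here. Gene names and positions came from GENCODE M21 (GRCm38): 54435 IDs matched with their version, 792 without it and 260 not at all.

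Counts of the 16 pLV2 libraries (8 groups of 2) were fitted together with edgeR 4.0.16 (quasi-likelihood test, limma 3.58.1, R 4.3.3), after filterByExpr and with TMM factors from gene counts, which also scale the repeats. Genes and repeats were adjusted separately by the Benjamini-Hochberg method, at a threshold of 0.05. Contrasts were line 2 against line 1 with DOX, the same without DOX, their difference (interaction), and DOX within each line. Replicates of each group differed by more than counting error, with a chi-square per degree of freedom of 3.013 to 8.427. A group with 3 counts or fewer in each library was taken as at the floor of 3 counts per library. The fit was tested on simulated data. Replicate numbers were not used to pair libraries: the labels tie no number to a shared culture or day, and the correlation of same-numbered deviations was -0.058 between the compared groups, 0.246 between line 2 with and without DOX, and 0.019 to 0.03 for the other pairs of groups.

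Members and gene lists were chosen with earlier results of these data known. Genes named beyond fixed sets were the 10 with the smallest p and the 8 with the largest fold in each direction, the 5 repeat subfamilies with the smallest p, the 5 genes and 3 repeat subfamilies with the smallest interaction p, all with a mean of at least 50 counts, and up to 3 members of each list. Further members of a list were named after their values were seen. Alternatives were DESeq2 1.42.0, other scalings, filters, sample sets, a replicate block and leaving out each library. Sequences came from RefSeq promoters (GRCm38.p6). Some members of the lists are counted but not reported here by name.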

Additional observations from a re-analysis of the deposited data

Results flagged for a closer look

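The effect of DOX differed between the lines, by the interaction test of edgeR, for 44 genes and 200 repeat subfamilies. For genes the difference is given as the DOX effect in line 2 less that in line 1, on the log2 scale. It was 1.71 for Pdzd2, 1.09 for Dcbld1, 1.02 for Zfp516, 1.73 for Abhd6 and 0.97 for Arhgap8. Zscan4c and Zscan4d had 4.31 each, from DOX effects of 8.11 and 7.86 in line 1 and 12.42 and 12.17 in line 2. For 5430402O13Rik the fitted value was 12.4, which is no bound since it had 0 to 2 counts without DOX; its rise in line 2 was at least 92.0-fold. The effect of DOX was smaller or more negative in line 2 for Lonrf3 (-1.76), Hmgn3 (-2.07), Socs3 (-0.62), Gabbr1 (-0.58) and Pfkfb3 (-0.86). Of 17 alternatives, 6 ended the interaction call of Hmgn3, 3 that of Socs3, 6 that of Gabbr1 and 9 that of Pfkfb3, with adjusted p up to 0.174, 0.0981, 0.169 and 0.163. Those of Pdzd2, Dcbld1, Zfp516, Abhd6 and Arhgap8 were kept under all 17.

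Among repeat subfamilies the difference was 2.06 for RLTR6-int, 1.98 for MERVL-int, 1.83 for MMERVK9E_I-int, 1.73 for SRV_MM-int, 1.66 for MT2_Mm and 1.47 for RMER12B. GSAT_MM had 1.51, MERVL_2A-int 1.13, IAPEz-int 0.88, L1Md_Gf 0.85, ORR1A3 0.76 and MMERVK9C_I-int 0.46. L1Md_Gf and MMERVK9C_I-int were lower in line 2 under both conditions, and by less with DOX.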

How the results depend on the processing

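Of 2458 values of 176 features, those of the naming rule and further ones named in the text, 2358 kept their side of the threshold with DOX, 84 lost the call, 16 gained it and 0 called values changed sign. Duxbl3 (-1.01 to 1.32), Eif2s3y (-0.46 to 0.63), Dio3, L1Md_A, MMETn-int and ETnERV-int, which passed under none of them, took both signs. With a fold of at least 2 required, 2041 genes and 112 repeat subfamilies passed with DOX, 1746 genes and 16 repeat subfamilies without DOX, and 71 repeat subfamilies for the interaction. Leaving out 1 library gave 5079 to 6128 genes and 402 to 494 repeat subfamilies with DOX, 4684 to 6284 and 39 to 135 without DOX, and 9 to 75 and 108 to 224 for the interaction. Repeat calls without DOX numbered 248 with no filter on low counts, 173 with only the groups compared, 191 with only the 8 WT pLV2 libraries and 205 when scaled by genes outside chromosomes 1, 6, 8 and 11. Interaction genes numbered 100 with DESeq2 and 240 with no filter. The replicate block gave 7300 genes and 531 repeat subfamilies with DOX, 7033 and 111 without, and 42 and 196 for the interaction, and among the 176 features it changed 1 call with DOX, that of Ddx3y (0.0244); the germ layer list had 4 higher and 4 lower. Leaving out 1 library moved the medians of the 2C list to 0.90 to 1.24, the induced list to 0.85 to 1.09, ERVL to 0.48 to 0.60, ERVK to 0.47 to 0.58, L1 to 0.50 to 0.61, and chromosomes 1, 6, 8 and 11 to 0.36 to 0.50, 0.33 to 0.38, 0.25 to 0.39 and 0.38 to 0.40. Scaling by genes outside these chromosomes, chosen after seeing the data, gave 0.61 for ERVL, 0.64 for ERVK and 0.65 for L1, 0.54, 0.44, 0.43 and 0.49 for these chromosomes, and reversed the medians of chromosomes 3 (0.0213), 12 (0.0247), 13 (0.0661), 14 (0.0076) and 16 (0.0126). It moved calls without DOX to 4339 higher and 2607 lower. Chromosome 13 also reversed with RLE size factors (0.0150) and DESeq2 (0.0140). Chromosomes 6 and 11 had 0.39 and 0.44 with RLE and with DESeq2, 0.31 and 0.37 with repeats in the library sizes, 0.37 and 0.42 without CT010467.1, and 0.36 and 0.43 with only the groups compared; chromosome 11 had 0.42 with only the 8 WT pLV2 libraries. Without members on those chromosomes the medians of the TIF1 family (-0.30) and the integrated stress response list (-0.0512) reversed. Where no value shows it, the cause was not tested. With 2 libraries a group, no exact permutation test of 1 value could go below p = 0.333.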
